A study of Mus musculus with 5 samples.

Results

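The peaks of the MLL-AF9 library were set against those of the non-transduced library, both from chromatin immunoprecipitation and sequencing (ChIP-seq) of histone H2A ubiquitinated at lysine K119 (H2AK119Ub). All 1408 peaks of the MLL-AF9 list and all 1332 peaks of the non-transduced list were taken, 2740 of the 5132 peaks in the 4 deposited lists. A peak was called matched when it shared at least 1 bp with a peak of the other list. Both libraries came from lineage-negative bone marrow progenitors of C57BL/6 mice with the genotype R26CreERT2;Ring1a-/-;Ring1bf/f;Cdkn2a-/-, kept in liquid culture, and they differed by transduction with MLL-AF9 or no transduction. Ring1a was therefore absent from both, Ring1b was floxed under an inducible Cre, and whether Cre had been induced is not stated in the labels. There was 1 library per group, and none of the samples described was transduced with an empty vector, so MLL-AF9 and the transduction cannot be told apart, and no test between the groups was possible. The depth of the libraries is unknown.

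H2AK119Ub is placed by Polycomb repressive complex 1 (PRC1), whose ubiquitin ligases are RING1A and RING1B, and it is known for marking broad stretches over silent developmental genes with CpG-rich promoters. MLL-AF9 is a fusion of the histone methyltransferase MLL with AF9, a partner that recruits transcription elongation factors, and it causes acute myeloid leukaemia. Genes of the HoxA cluster are among its best known targets. Cdkn2a, deleted in both groups, encodes tumour suppressors and is itself a textbook target of PRC1.

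The lists were matched in part, and the unmatched peaks were narrower than the matched ones. Of the 1332 non-transduced peaks 764 (57.4%, exact 95% binomial interval 54.7 to 60.0) shared bases with an MLL-AF9 peak, and 568 did not. Of the 1408 MLL-AF9 peaks 768 (54.5%, interval 51.9 to 57.2) shared bases with a non-transduced peak, and 640 did not. That matched peaks were the larger part depended on the settings: when 50% of a peak had to be overlapped the shares were 49.6% and 51.1%, and in the upper 50% by score 45.6% and 43.2%. These intervals, and those of medians below, take each peak as independent and speak only of counting error. Since every peak of both lists was taken, these shares are also the background for the counts of loci below.

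The genomic length that the lists had in common was 14.9 Mb, which was 47.5% of the 31.4 Mb of the non-transduced list and 55.3% of the 27.0 Mb of the MLL-AF9 list. The length listed only in non-transduced cells was 16.5 Mb, of which 4.997 Mb lay at the flanks of matched peaks or between the parts of split ones and 11.5 Mb in unmatched peaks. The length listed only in MLL-AF9 was 12.1 Mb, with 2.42 Mb in matched and 9.64 Mb in unmatched peaks. The smaller cover of the MLL-AF9 list (-4.42 Mb) thus had a part inside matched peaks (-2.58 Mb) and a part in unmatched ones (-1.85 Mb).

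Loci with developmental regulators differed in both directions. The deposited lists name no genes, and with no mm9 annotation used here the loci are named from general knowledge of where these genes lie in mm9. They were the 4 Hox clusters, the ParaHox cluster, and 9 loci or genes singled out with earlier results of these data known. Of the 14 loci 11 had a peak in both lists, 1 (Gata2) in MLL-AF9 only, and 2 (Meis1 and Mecom) in neither. Among the 11 the covered length was smaller in MLL-AF9 at 8 and larger at 3, with a median ratio of 0.874 and a range from 0.254 (Wnt1 and Wnt10b) to 1.85 (ParaHox). Over the whole lists the ratio of covered lengths was 0.859. Of all pairs of peaks that overlapped only each other 60.5% had the narrower peak in MLL-AF9, with a median width ratio of 0.946. The loci also hold unmatched and multiple peaks, so these values are a rough background only, and no difference from them was tested.

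**Figure D1:**
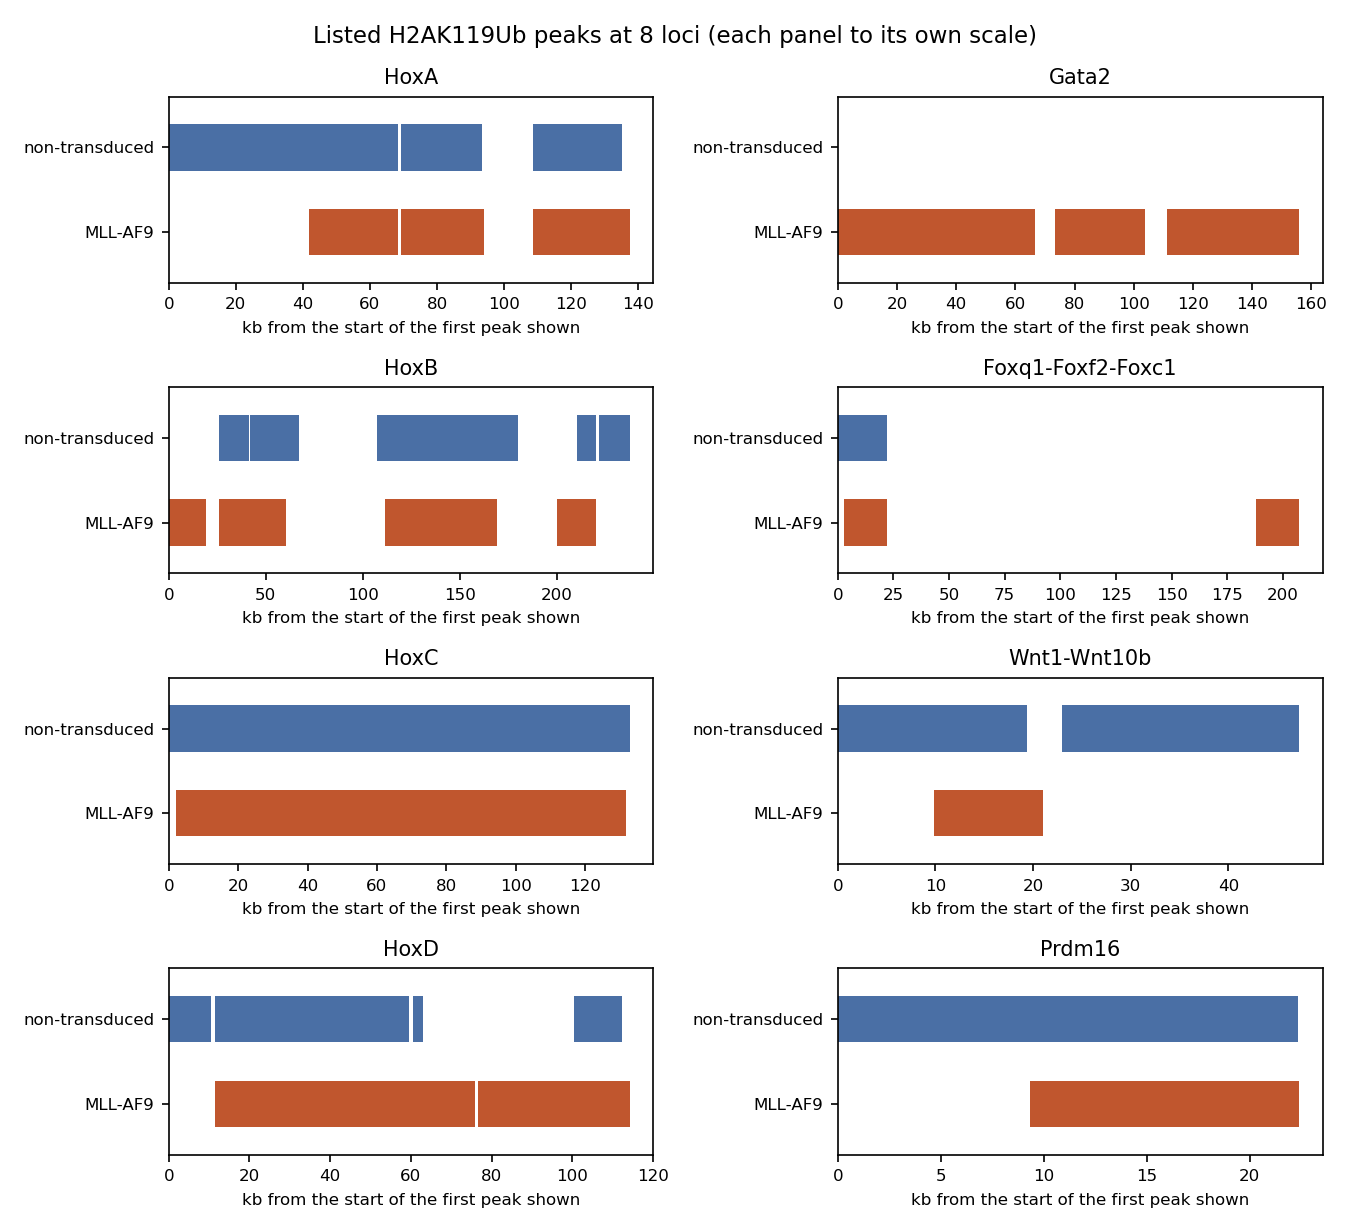
Listed peaks at 8 loci in the non-transduced (upper bars) and MLL-AF9 (lower bars) lists, in kb from the start of the first peak shown. At HoxA the MLL-AF9 peaks began 41.9 kb inside the longest non-transduced peak, at HoxC the peaks nearly coincided, and at Gata2 bars are present for MLL-AF9 alone.

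At the HoxA cluster, whose homeobox genes pattern the body axis and sustain progenitor growth, the MLL-AF9 list covered 80.2 kb against 118.6 kb in the non-transduced list over the part of the cluster described here. The longest non-transduced peak spanned chr6:52141970-52210236 (mm9, 68.3 kb) and its MLL-AF9 match chr6:52183835-52210275 (26.4 kb). The right edges differed by 39 bp and the left edge of the MLL-AF9 peak lay 41865 bp further in. The part listed in both was on the high-coordinate side. Which Hoxa genes lie under the shorter peak was not determined.

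The peaks beside it at higher coordinates differed little in position between the lists, but their ranks by the authors' score within each list differed. The next pair, chr6:52211246-52235228 in the non-transduced list and chr6:52211261-52235937 in MLL-AF9, had left edges 15 bp apart and right edges 709 bp apart. The pair after that measured 26.4 kb in the non-transduced list and 29.1 kb in MLL-AF9. By score the former pair ranked 102 in the non-transduced list and 1201 in MLL-AF9, and the latter pair 1115 and 27. The authors' peak numbers, which run along the chromosomes, had gaps, so that some numbered calls were not listed. Between the MLL-AF9 peak that began at 52183835 and the listed peak before it no number was missing, so no numbered MLL-AF9 call was left out over the left part of the longest non-transduced peak. In the HOXA9 and PML-RARa lists, from cells transduced with the homeobox gene HOXA9 and the fusion oncogene PML-RARa, the peaks of this part of the cluster covered 117 and 129 kb.

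At the other Hox clusters no MLL-AF9 peak was shorter by such a stretch on 1 side. At HoxC the peak was 133 kb in the non-transduced list (chr15:102743028-102876080) and 130 kb in MLL-AF9 (chr15:102745099-102874819), with a width ratio of 0.975. At HoxD the MLL-AF9 list covered more, 102 kb against 72.7 kb. Its peak at chr2:74491986-74556202 (64.2 kb) took in a non-transduced peak of 48.1 kb with the same left edge to 28 bp and a further one of 2.39 kb. The HOXA9 and PML-RARa lists likewise had a peak over this whole stretch, of 65.3 and 65.5 kb. A neighbouring MLL-AF9 peak of 37.6 kb (chr2:74557140-74594785) matched a non-transduced peak of 11.7 kb, while a non-transduced peak of 10.5 kb at the Hoxd13 end (chr2:74480394-74490862) was unmatched. At this last peak 1 MLL-AF9 number was missing between the listed neighbours, and PML-RARa had a listed peak of 10.3 kb. At HoxB the covered lengths were close (132 kb in MLL-AF9 and 139 kb in the non-transduced list), but 102 kb was in common. There the MLL-AF9 peak at chr11:96110614-96168648 was 58.0 kb against 72.7 kb, and each list had 1 unmatched peak at opposite ends of the cluster (19.1 kb in MLL-AF9 at the Hoxb13 end and 16.1 kb in the non-transduced list at the Hoxb1 end). No non-transduced number was missing at the former, while 2 MLL-AF9 numbers were missing between the listed neighbours of the latter.

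At the ParaHox cluster, which holds the homeobox genes Gsx1, Pdx1 and Cdx2, both non-transduced peaks lay wholly within MLL-AF9 peaks. These were 13.5 against 12.0 kb and 32.6 against 22.3 kb, and a further MLL-AF9 peak of 17.7 kb at chr5:148075857-148093537 was unmatched. No number was missing from the non-transduced list at that place, and neither HOXA9 nor PML-RARa had a listed peak over it.

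The stretch around Gata2, which encodes a zinc finger factor of haematopoietic stem and progenitor cells, had 3 MLL-AF9 peaks and no non-transduced one. They lay at chr6:88056946-88123603 (66.7 kb, score 1101), chr6:88130419-88160633 (30.2 kb, score 1545) and chr6:88168167-88212949 (44.8 kb, score 799), and together they covered 142 kb. The score is the authors' own value for each peak, its scale is not stated, and it is used here only within a list. The lowest listed score was 703 in MLL-AF9 and 700 in the non-transduced, HOXA9 and PML-RARa lists. In all, 402 numbers were missing from the MLL-AF9 list and 434 from the non-transduced list. Whether those calls were left out for a low score was not tested, so an unmatched peak may face an unlisted call. The nearest listed non-transduced peaks were 366 kb before the first and 602 kb after the last of the 3, and 1 number was missing from the non-transduced list between them. HOXA9 had 2 peaks here (55.6 kb) and PML-RARa 3 (132 kb).

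At the forkhead cluster Foxq1, Foxf2 and Foxc1, genes for factors of mesodermal and vascular development, the non-transduced list had a peak of 22.3 kb (chr13:31701836-31724094), matched by 1 of 19.3 kb in MLL-AF9. A further MLL-AF9 peak of 19.5 kb at the Foxc1 end (chr13:31889679-31909209) was unmatched, and here too 1 non-transduced number was missing between the listed neighbours. The HOXA9 and PML-RARa lists also had a peak at this place, of 30.8 and 22.0 kb.

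Promoter sequences of Gata2 and Foxc1 are shown because these loci had MLL-AF9 peaks with no non-transduced match and because PRC1 is known to favour CpG-rich starts. They are the 250 bases before each start in RefSeq's table of GRCm38.p6, a later build than that of the peaks, on the plus strand, with each CG dinucleotide in capitals. The positions are chr6:88193641-88193890 and chr6:88198414-88198663 for the 2 listed starts of Gata2 and chr13:31806396-31806645 for Foxc1, all in GRCm38.p6. Whether a peak covers these bases was not determined, since positions were not converted between builds.
Gata2 start 1: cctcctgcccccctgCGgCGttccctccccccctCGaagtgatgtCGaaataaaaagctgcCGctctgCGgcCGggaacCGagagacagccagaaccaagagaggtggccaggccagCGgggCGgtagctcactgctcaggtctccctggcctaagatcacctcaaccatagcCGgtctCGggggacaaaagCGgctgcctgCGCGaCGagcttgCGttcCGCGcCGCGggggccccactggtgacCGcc
Gata2 start 2: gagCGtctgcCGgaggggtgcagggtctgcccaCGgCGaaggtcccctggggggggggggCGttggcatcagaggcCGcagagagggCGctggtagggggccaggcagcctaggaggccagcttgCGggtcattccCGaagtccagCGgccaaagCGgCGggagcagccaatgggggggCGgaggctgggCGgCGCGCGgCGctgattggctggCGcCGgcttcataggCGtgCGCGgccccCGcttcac
Foxc1: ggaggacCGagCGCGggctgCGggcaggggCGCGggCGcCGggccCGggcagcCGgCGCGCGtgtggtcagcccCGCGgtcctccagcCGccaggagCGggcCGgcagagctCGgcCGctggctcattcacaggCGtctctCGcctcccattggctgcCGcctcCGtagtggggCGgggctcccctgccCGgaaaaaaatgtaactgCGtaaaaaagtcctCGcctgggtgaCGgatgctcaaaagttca
The Gata2 promoters held 22 and 24 CG and that of Foxc1 held 29, against a median of 6 over the 32851 promoters of the table. As many CG were found in 14.8%, 12.0% and 6.78% of all promoters, counted on the printed strand, which holds the same number as the other. Promoters of the other loci named here were not set beside them. Whether such counts are particular to loci with unmatched MLL-AF9 peaks was therefore not tested.

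At the Wnt1 and Wnt10b locus, which encodes secreted Wnt ligands, the non-transduced list had peaks of 19.4 kb (chr15:98594249-98613661) and 24.3 kb (chr15:98617207-98641525). The MLL-AF9 list had 1 peak of 11.1 kb (chr15:98604140-98615251), which overlapped the first and ended 1.955 kb before the second. The second was the unmatched non-transduced peak with the highest score (1694), and 1 MLL-AF9 number was missing between that library's listed neighbours. This non-transduced peak lay wholly inside a HOXA9 peak of 27.1 kb and a PML-RARa peak of 54.7 kb. At Tbx2 and Tbx4, T-box factors of limb and organ development, 1 MLL-AF9 peak of 25.8 kb lay across the facing parts of a pair of non-transduced peaks of 21.9 and 18.2 kb. The HOXA9 and PML-RARa lists also had a peak across both, of 39.7 and 41.8 kb. At Tlx1 and Lbx1, a pair of homeobox genes, the peak with the highest score of the non-transduced list (2107) measured 39.0 kb and its MLL-AF9 match 51.6 kb. A non-transduced peak of 16.5 kb beside it at chr19:45366385-45382834 was unmatched, and 1 MLL-AF9 number was missing there. HOXA9 and PML-RARa had peaks of 21.6 and 16.7 kb at this place.

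At Mapk12, Mapk11 and Plxnb2, which encode stress-activated kinases and a semaphorin receptor, the long peaks nearly coincided, with 66.4 kb in the non-transduced list and 64.2 kb in MLL-AF9. A further non-transduced peak of 11.8 kb at chr15:88931611-88943408 was unmatched, and 2 MLL-AF9 numbers were missing between its listed neighbours. At Prdm16, a zinc finger regulator of stem cell maintenance, the peak was 22.4 kb in the non-transduced list (chr4:153995939-154018295) and 13.1 kb in MLL-AF9 (chr4:154005256-154018346). The right edges differed by 51 bp and the left edge of the MLL-AF9 peak lay 9.32 kb further in. Neither HOXA9 nor PML-RARa had a listed peak there. Meis1, the homeobox partner of HOXA9 protein, and Mecom, a zinc finger regulator of stem cells, had no listed peak in either library compared here. At both genes the HOXA9 and PML-RARa lists had peaks, of 3.69 and 36.9 kb in all at Meis1 and of 16.2 and 13.7 kb at Mecom.

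Over all loci, matched peaks were wider than unmatched ones in both lists. The median width of the 568 unmatched non-transduced peaks was 15.9 kb (interval 14.9 to 17.1) against 20.8 kb (interval 19.7 to 22.2) for the 764 matched ones. In MLL-AF9 it was 11.5 kb (interval 10.9 to 12.2) for the 640 unmatched and 18.4 kb (interval 17.1 to 19.3) for the 768 matched peaks. Peaks under 5 kb made up 9.53% of the unmatched and 1.95% of the matched MLL-AF9 peaks. Peaks over 50 kb made up 10.7% of the matched and 4.58% of the unmatched non-transduced peaks.

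**Figure D2:**
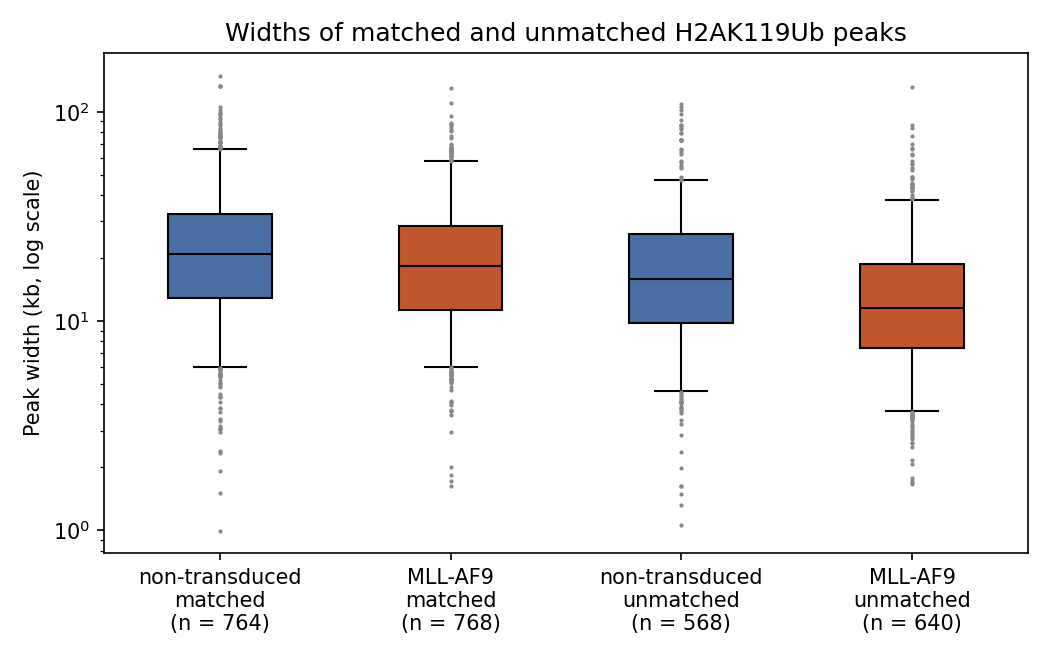
Widths in kb (log scale) of matched and unmatched peaks of each list. Boxes span the quartiles with the median as a line, whiskers span the central 5 to 95% of peaks and points lie beyond. The unmatched MLL-AF9 peaks have the lowest median, 11.5 kb.

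The share of matched peaks followed the score and the width within each list. In the non-transduced list it was 43.5% (interval 38.1 to 49.1) among the 333 peaks with the lowest scores and 77.2% (interval 72.3 to 81.6) among the 333 with the highest. In MLL-AF9 the shares among the lowest 352 and the highest 352 were 37.5% (interval 32.4 to 42.8) and 73.0% (interval 68.1 to 77.6). By width they ran from 45.9% in the narrowest 333 to 70.9% in the widest 333 of the non-transduced list, and from 34.4% to 72.4% between the narrowest and the widest 352 in MLL-AF9. A wide peak has more bases that can meet another peak. Split at the medians of both, 33.4% of the narrower and 58.5% of the wider MLL-AF9 peaks with low scores were matched, against 52.8% and 74.2% of those with high scores. In the non-transduced list these shares were 41.6 and 52.0% for low scores and 60.9 and 74.4% for high scores.

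Where a peak of each list overlapped only the other, the MLL-AF9 peak was more often the narrower. There were 692 such pairs, and the MLL-AF9 peak was narrower in 419 (60.5%). It was narrower by at least 1.5 times in 157 pairs (22.7%) and wider by at least 1.5 times in 80 (11.6%). The ratio of widths, MLL-AF9 over non-transduced, had a median of 0.946 (interval 0.915 to 0.974) and ran from 0.0730 to 4.50. In 384 pairs the narrower peak lay wholly inside the wider.

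**Figure D3:**
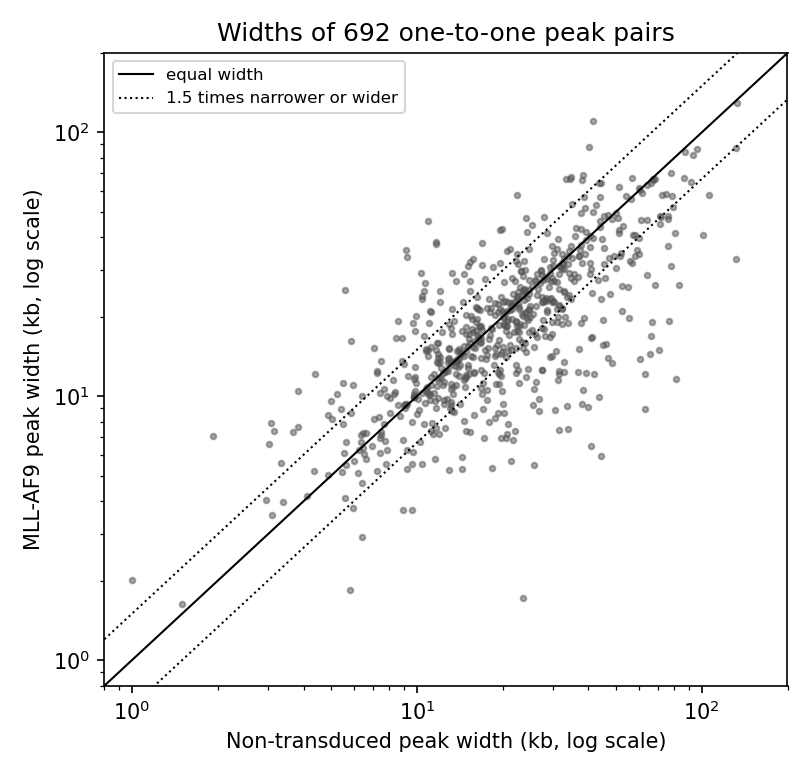
Width of the MLL-AF9 peak against that of its non-transduced partner in 692 pairs, in kb on log scales, 1 point per pair. The solid line marks equal width and the dotted lines a 1.5-fold difference; 157 points lie on or below the lower and 80 on or above the upper dotted line.

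The widest pairs held most of the difference in length. Ordered by the mean width of the pair, the narrowest 173 had a median ratio of 0.979 (interval 0.936 to 1.01) and differences (MLL-AF9 minus non-transduced) that summed to -0.0840 Mb. In the widest 173, with mean widths of 28.5 to 131 kb, the median ratio was 0.898 (interval 0.805 to 0.955), 121 MLL-AF9 peaks were narrower and the differences summed to -1.54 Mb, of -2.38 Mb over all pairs. The 419 shortened pairs summed to -4.14 Mb and the 273 lengthened ones to 1.75 Mb.

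Most edges lay within 5 kb of their partner's, and larger shifts were more often inward. The median shift of the left edge was -97.5 bp (interval -225 to -22) and of the right edge -110 bp (interval -226 to -54), where negative means that the MLL-AF9 edge lay inside the non-transduced peak. The left edges agreed within 1 kb in 285 pairs, the right edges in 298 and both in 114. Of the 1384 edges, 245 (17.7%) lay more than 5 kb inward and 122 (8.82%) more than 5 kb outward. Both edges were inward in 240 pairs, both outward in 139 and in opposite senses in 308, and 5 pairs had an edge in common to the base.

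Pairs that differed on 1 side, as at HoxA, recurred across the lists. In 93 pairs 1 edge was kept within 1 kb and the other lay more than 5 kb inward, and in 58 pairs the other lay more than 5 kb outward. Both edges lay more than 5 kb inward in 31 pairs and more than 5 kb outward in 9. The other oncogene lists were paired with the same non-transduced list, in 385 pairs for HOXA9 and 741 for PML-RARa. In 63 (16.4%) and 66 (8.91%) of these pairs 1 edge was kept and the other lay more than 5 kb inward, against 13.4% for MLL-AF9. The other lay more than 5 kb outward in 32 (8.31%) and 92 (12.4%) pairs, against 8.38%. The peak of the oncogene list was narrower in 62.9% and 43.2% of pairs, against 60.5% for MLL-AF9. Both edges were inward in 142 pairs (36.9%) for HOXA9 and in 156 (21.1%) for PML-RARa, against 34.7% for MLL-AF9. Both edges were outward in 74 (19.2%) and 243 (32.8%) pairs, against 20.1%. The share of pairs with 1 edge kept and the other inward was thus higher for HOXA9 than for MLL-AF9. The 3 comparisons share the non-transduced library, and differences between them were not tested.

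**Figure D4:**
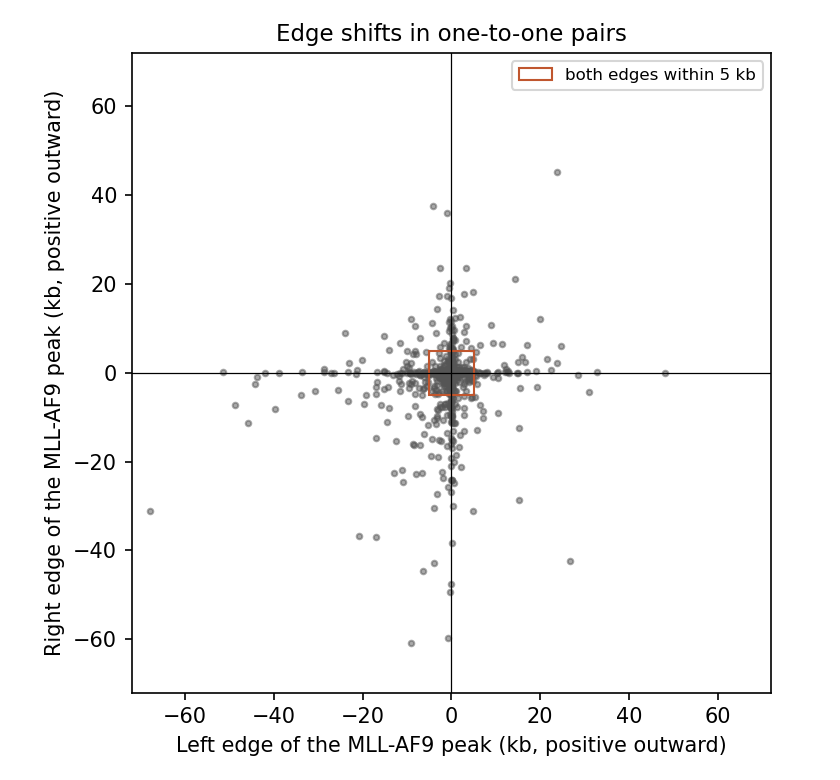
Shift of the left (horizontal) and right (vertical) edge of the MLL-AF9 peak against its non-transduced partner, in kb, positive outward, 1 point per pair (692 pairs). Points spread along both axes, which are pairs with 1 edge kept, and reach further in the inward directions; the square marks shifts of up to 5 kb at both edges.

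The 10 pairs with the largest shortening differed by 49.6 to 99.2 kb. The largest was on chromosome 6, where a peak of 132 kb (chr6:89216203-89348452) corresponded to 1 of 33.1 kb (chr6:89284141-89317233) that lay inside it on both sides. Next came a pair on chromosome 2 with 81.5 kb (chr2:163014486-163096003) against 11.6 kb. On chromosome 11 a peak of 101 kb (chr11:116772451-116873861), among the 5 highest scores of the matched non-transduced peaks (1957), corresponded to 1 of 40.8 kb with a left edge 0.864 kb further in. Kept edges also marked pairs at chr6:94590112-94655747, where 65.6 kb stood against 14.5 kb with right edges 0.273 kb apart, and at chr19:7131612-7198093, where 66.5 kb stood against 16.9 kb with left edges 0.262 kb apart. The remaining 5 of these pairs lay on chromosomes 2, 4, 5 and 17 and had both edges inward.

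The 10 largest lengthenings were smaller, from 26.8 to 68.9 kb. The MLL-AF9 peak at chr2:28008847-28119450 was 111 kb against 41.7 kb and passed its partner on both sides. At chr8:123239053-123327168 it was 88.1 kb against 40.1 kb, with right edges 0.065 kb apart. The highest ratio among these 10 was 4.20, at chr2:31097307-31143309 (46.0 against 10.9 kb).

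Peaks that broke into several or joined several were few. In the non-transduced list 27 peaks (median 47.6 kb) each overlapped more than 1 MLL-AF9 peak, and in MLL-AF9 24 peaks (median 32.7 kb) each overlapped more than 1 non-transduced peak. The widest non-transduced peak, 149 kb at chr2:166919842-167068380, met 3 MLL-AF9 peaks of 9.01, 25.2 and 6.07 kb. Another of 64.2 kb at chr9:107550427-107614626 met 3 of 22.4, 21.4 and 17.4 kb that nearly filled it. In the opposite sense an MLL-AF9 peak of 50.1 kb at chr9:64967542-65017628 met non-transduced peaks of 9.62, 21.2 and 15.1 kb. Of the 29 gaps between consecutive MLL-AF9 pieces of a non-transduced peak 19 were of up to 2000 bp, and the largest, at the chromosome 2 peak above, was 78.0 kb. Of the 25 gaps between non-transduced peaks joined by an MLL-AF9 peak 21 were of up to 2000 bp. Over each whole list the smallest gap between neighbours was 805 bp in the non-transduced list and 802 bp in MLL-AF9, and 93 and 62 gaps were of up to 2000 bp. Such a gap followed the longest non-transduced HoxA peak and its MLL-AF9 match, with 1009 bp in the non-transduced list and 985 bp in MLL-AF9. The HOXA9 and PML-RARa lists also had a gap at this place, of 865 and 940 bp.

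Unmatched peaks included some with scores near the top of their list. Among MLL-AF9 peaks the 5th and 6th highest scores were unmatched: 1937 at chr4:135736083-135752501 (16.4 kb) and 1930 at chr15:74336666-74358364 (21.7 kb). At the first, no number was missing from the non-transduced list, and it lay 0.843 kb from a matched MLL-AF9 peak. An unmatched peak of 27.1 kb at chr9:123387994-123415136 had a score of 1628 and lay 901 kb from the nearest matched MLL-AF9 peak. The 10 unmatched MLL-AF9 peaks with the highest scores ran from 1492 to 1937. Of these 5 overlapped a HOXA9 peak and 5 a PML-RARa peak, against 16.7% and 44.7% of all 640 unmatched MLL-AF9 peaks, and 2 lay where no non-transduced number was missing. With 10 peaks chosen by score, no difference from these shares was tested.

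In the non-transduced list the 10 highest unmatched scores ran from 1452 to 1694. After the peak at Wnt1 and Wnt10b came 1 of 64.0 kb at chr11:52066571-52130595 (score 1689), where no MLL-AF9 number was missing and the nearest matched peak was 1641 kb away. A peak of 40.1 kb at chr2:31932570-31972637 (score 1522) also lay where no MLL-AF9 number was missing. Another, of 17.0 kb at chr5:42142217-42159200 (score 1537), was 6031 kb from the nearest matched peak. It overlapped a peak of the HOXA9 list and 1 of the PML-RARa list. Of the 10 peaks 5 overlapped a HOXA9 and 6 a PML-RARa peak. Among all 568 unmatched non-transduced peaks the shares were 12.1% and 42.4%, and no difference from them was tested.

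The 5 widest unmatched peaks of each list were over 70 kb. The non-transduced list had 108 kb at chr7:151770085-151878385, 105 kb at chr7:151344935-151450432 and 102 kb at chr2:166417575-166519255, none of them with a HOXA9 or PML-RARa peak. The other two, of 98.0 and 91.5 kb, both overlapped a PML-RARa peak and the first also HOXA9 peaks. Of all 568 unmatched non-transduced peaks 12.1% overlapped a HOXA9 and 42.4% a PML-RARa peak. In MLL-AF9 the widest was 131 kb at chr5:125496784-125628069, followed by 86.6 kb at chr5:144854513-144941097. Of the 5 widest MLL-AF9 peaks 4 overlapped a PML-RARa and 1 a HOXA9 peak, while the widest overlapped neither. Among all 640 unmatched MLL-AF9 peaks these shares were 44.7% and 16.7%. The peaks were chosen by width, and a wide peak has more bases that can meet another, so no difference was tested.

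Unmatched MLL-AF9 peaks lay further from matched peaks than unmatched non-transduced ones did. The median gap to the nearest matched peak of the same list was 434 kb (interval 375 to 531) for the 640 MLL-AF9 peaks and 250.1 kb (interval 201 to 304) for the 568 non-transduced ones. Matched peaks were 218 kb (interval 170 to 253) from the next matched peak in MLL-AF9 and 217 kb (interval 169 to 251) in the non-transduced list. A gap of up to 100 kb was found for 21.7% of the unmatched MLL-AF9 peaks (interval 18.6 to 25.1) and 32.6% of the unmatched non-transduced ones (interval 28.7 to 36.6). Gaps of more than 1 Mb were found for 205 (32.0%) and 123 (21.7%).

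Few unmatched peaks were near misses. A peak of the other list lay within 1 kb of 6 unmatched MLL-AF9 and 7 unmatched non-transduced peaks, and within 10 kb of 54 and 63. Of the unmatched MLL-AF9 peaks 266 lay where no number of the non-transduced list was missing, and of the unmatched non-transduced peaks 261 lay where none of MLL-AF9 was. For the other 374 and 307 an unlisted call of the other library at the place cannot be told apart from no call.

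**Figure D5:**
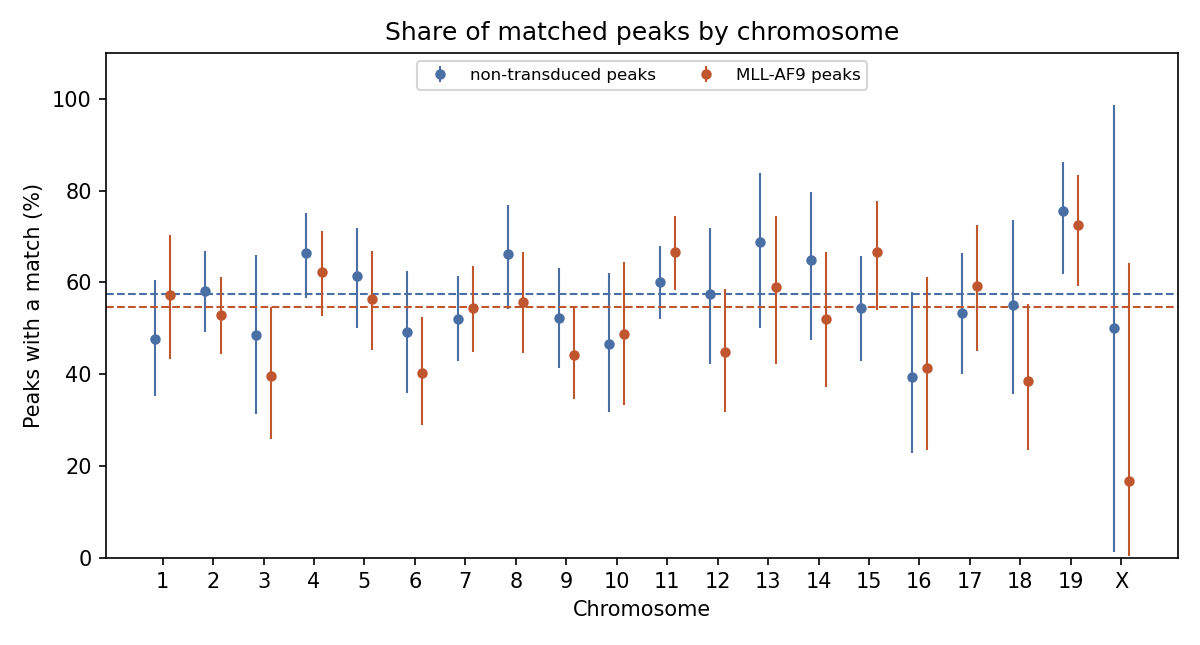
Share of matched peaks on each chromosome in percent, for non-transduced and MLL-AF9 peaks, with exact 95% binomial intervals; dashed lines mark the shares over all chromosomes (57.4 and 54.5%). Chromosome 19 lies above both lines in both lists.

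The matched share was highest on chromosome 19 in both lists. There 40 of 53 non-transduced peaks (75.5%, interval 61.7 to 86.2) and 42 of 58 MLL-AF9 peaks (72.4%, interval 59.1 to 83.3) were matched, and both intervals lay above the share over all chromosomes. On chromosome 11, which had more non-transduced peaks than any other, 94 of 141 MLL-AF9 peaks were matched (66.7%, interval 58.2 to 74.4). Intervals below the overall MLL-AF9 share were those of chromosome 6, with 29 of 72 peaks (40.3%, interval 28.9 to 52.5), and chromosome 9, with 46 of 104 (44.2%, interval 34.5 to 54.3). These were picked from 40 intervals, and no adjustment was made. The number of listed peaks was larger in MLL-AF9 on chromosome 9 (104 against 86) and on chromosome 2 (144 against 129) and smaller on chromosome 11 (141 against 158) and chromosome 15 (66 against 79). Chromosome X had 6 MLL-AF9 and 2 non-transduced peaks. The median ratio of pair widths ran from 0.837 on chromosome 5, over 44 pairs, to 1.14 on chromosome 16, over 11 pairs, beside 1 pair on chromosome X at 1.18. It was 1.02 on chromosome 19 over 36 pairs and 1.03 on chromosome 6 over 29.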

How the data were processed

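H2AK119Ub ChIP-seq peak lists were compared for 1 MLL-AF9 and 1 non-transduced library; HOXA9 and PML-RARa lists were used for reference and the input was not analysed here. Cells had been fixed with 1% formaldehyde and chromatin sheared to an average of 200 to 300 bp, per the labels' protocols. Bowtie, MACS2 and mm9 are named in the submitters' processing notes; no version or parameter is given in the sources used here, nor whether peaks were called against the input. The deposited files hold start, end, name and a score that the authors gave each peak, on a scale not stated and used only within a list. Positions are printed counting from 1. The lists hold no read counts, so no count test was possible. The members, loci and lists were chosen with earlier results of these data known.

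Peaks matched when they shared at least 1 bp. Shares have exact (Clopper-Pearson) 95% intervals and medians distribution-free 95% intervals from order statistics. Loci were named by score among unmatched peaks (10 per list), width of unmatched peaks (5), score of matched peaks (5), shortening or lengthening of pairs (10 each), splits into 3, and the loci given; the text gives a part of each set. Gene lists planned for an mm9 annotation were left out, and 1 item is not reported here. RefSeq tables of GRCm38.p6 gave gene order within clusters and the promoter sequences with their positions. Alternatives were an overlap of 50%, gaps of up to 1000 bp, the upper 75% or 50% by score, equal list lengths, and merging within 1000 bp or, added after seeing the data, 2000 bp. The 50% was of the peak's own width for matching, of both widths for pairs, and of either width for splits and joins. Overlap and edge calculations were tested on simulated data. They used Python 3.11.15, with scipy 1.17.1, numpy 2.4.6, matplotlib 3.10.9 and pandas 2.3.3.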

Additional observations from a re-analysis of the deposited data

How the results depend on the processing

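Of 74 values recomputed under the alternatives 57 stayed within their interval, or within 1.5 times for lengths and counts, and 17 moved further. The median width ratio of pairs lay below 1 under each alternative tried for it, and both median edge shifts stayed inward. With an overlap of 50% of both peaks of a pair the ratio was 0.974, and the interval of the left shift (-55.5 bp, interval -138 to 7) reached outward values. This rule drops pairs of very unlike width, so large differences could not appear under it. The matched share of the non-transduced list was 49.6% with an overlap of 50%, 52.6% in the upper 75% by score and 45.6% in the upper 50%. For MLL-AF9 these shares were 51.1%, 50% and 43.2%, so under some of these settings matched peaks were no longer the larger part of a list. In the upper 75% the median distance of unmatched to matched peaks was 341 kb in the non-transduced list and 540 kb in MLL-AF9, and the median width of unmatched MLL-AF9 peaks was 13.2 kb; that of unmatched non-transduced peaks was 17.6 kb with an overlap of 50%. Split peaks numbered 41 with gaps of up to 1000 bp and 13 in the upper 75%. Joined peaks numbered 15 with an overlap of 50%, 40 with gaps of up to 1000 bp, 11 in the upper 75%, 14 after merging within 1000 bp and 9 within 2000 bp. Shorter lists hold fewer peaks to match by construction. An overlap of 50% can only lower the matched shares and the numbers of split and joined peaks. Gaps of up to 1000 bp can only raise them. For the other moves the cause was not tested. No paired analysis was possible because each group had 1 library, and no library could be left out. Depth is unknown, so a missing peak is not shown to be a missing mark.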
